A study of Homo sapiens with 3 samples.

Results

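Among 24424 genes counted in 3 melanoma libraries, 217 were expressed long intergenic or antisense RNAs. They were selected on their names and on their abundance: the symbol starts with LINC and a digit, or ends in -AS1, -AS2 or -AS3, and the mean raw count over the 3 libraries is at least 50. Of these members 82 were long intergenic and 135 were antisense (127 ending in -AS1, 7 in -AS2 and 1 in -AS3). The name pattern fitted 1849 symbols in all, 878 LINC and 971 antisense, and 1632 of them stayed below the mean count, including 659 without a count in any library. The minimum used the same counts that are compared here, and 55 members had fewer than 50 counts in at least 1 library, so a member can owe its place to the library where it is high. For that reason the main counts of members are set beside those over the 11956 genes that passed the same minimum (called measured below).

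Long noncoding RNAs are transcribed by RNA polymerase II, mostly capped, spliced and polyadenylated like messengers, but have no long open reading frame. Long intergenic RNAs lie between protein-coding genes, and some, such as NORAD, act in trans by binding proteins. Antisense RNAs are read from the strand opposite a coding gene, or start back to back with it from a shared promoter, and some regulate that gene in cis. Many are expressed in few cell types, and SAMMSON and LINC00518 are known from melanoma.

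The libraries came from A375SM, a metastatic derivative of the human melanoma line A375, infected with lentiviral LV-GFP vectors and kept as stable GFP-positive populations. One carried a hairpin against PRAME (shPRAME), a cancer-testis antigen that represses retinoic acid receptor signalling. Another carried a hairpin against BAP1 (shBAP1), the deubiquitinase of histone H2A, and the third was the control shEmpty. The submitters describe the control both as wild type and as carrying a hairpin without a target, and all 3 groups share the line, the vector and the selection. Each group was 1 library of 1 population, so there was no replicate check and no p-value, and an effect of lowering the target cannot be told apart from one of the population or of the hairpin's sequence.

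PRAME was at 327 CPM in shEmpty, 455 in shBAP1 and 108 in shPRAME, where CPM is the count per 1000000 counts of the scaled library. BAP1 was at 100.0, 35.2 and 97.9 CPM in the same order, so each target was lowest in the library of its own hairpin. The libraries held 19430130 (shEmpty), 14181829 (shBAP1) and 18456328 (shPRAME) counts. SOX10, MITF and CSPG4, markers of the melanocyte lineage, were abundant in every library, while PMEL (6, 34 and 8 counts) and MLANA (3, 19 and 7 counts) were nearly absent from all 3. The pigment genes TYR (4, 573 and 0 counts), TYRP1 (0, 1037 and 1 counts) and DCT (192, 1668 and 6 counts) were highest in shBAP1. Summed markers of other cell types ranged from 63.2 to 116 CPM for fibroblasts, 12.3 to 79.2 for endothelium, 27.2 to 53.4 for keratinocytes and 51.4 to 150.1 for immune cells. KDR (11.5 to 78.8 CPM), KRT10 (27.0 to 53.1) and CD68 (49.0 to 144) made up most of the endothelial, keratinocyte and immune sums. CDH5, KRT1 and CD3E had no count in any library. In bulk RNA, fewer cells that express a gene and less RNA per cell cannot be told apart.

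The members took 0.348% of all counts in shEmpty, 0.431% in shBAP1 and 0.399% in shPRAME, or 67520, 61188 and 73561 counts. In shEmpty 216 of the 217 had at least 1 count, and in the other libraries all did. Most were scarce: 145 had a mean count under 200, 72 reached 200 and 11 reached 1000. Just inside the minimum were LINC00508 (70, 27 and 53 counts in shEmpty, shBAP1 and shPRAME) and ZNF436-AS1 (26, 13 and 111), both with a mean of 50, and OSER1-AS1 with 51.3. Just outside were EMC3-AS1 (49.7), SRGAP2-AS1 (49.3) and CAPN10-AS1 (48.7).

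The symbols in the count table are older than those RefSeq uses now. Of the 217 members 167 matched a current RefSeq symbol, 49 an older one and 1 none (FBXO22-AS1). RefSeq lists 11 members as protein coding, among them HNRNPU-AS1 and LINC00341, whose names now point to the genes HNRNPU and SYNE3. For others the entry is a small protein: LINC00116 (MTLN, mitoregulin), LINC01420 (NBDY, a microprotein of messenger decapping), LINC00998 (SMIM30), LINC00493 (SMIM26) and LINC01314 (CTXND1). Another 20 now carry the ending -DT, for a divergent transcript that starts back to back with a coding gene.

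Per kilobase of exon, for the 204 members with a known length, the most abundant were HIF1A-AS2, LINC00657 and LRRC75A-AS1. HIF1A-AS2, antisense to the hypoxia factor HIF1A, was at 128, 116 and 113 CPM per kb in shEmpty, shBAP1 and shPRAME. It overlaps HIF1A on the opposite strand and had 1280, 921 and 1097 counts, beside 4531, 3411 and 3906 of HIF1A. The strand setting of the counting is not given, so reads of this pair cannot be told apart. LINC00657 is NORAD, which sequesters Pumilio proteins, and stood at 105, 119 and 123 CPM per kb. LRRC75A-AS1, a snoRNA host now named SNHG29, stood at 104, 118 and 61.4 CPM per kb. These levels were far above the median member, whose mean over the libraries was 2.58 CPM per kb.

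A member was called higher or lower when its scaled count differed at least 2-fold and the exact 95% interval of the ratio, from counting error alone, left out no change. In shPRAME against shEmpty, which asks what differs where the PRAME messenger is lowered, 40 members were called higher and 15 lower. That is 18.4% and 6.91% of members, beside 10.2% called higher and 9.08% called lower among all measured genes. The members' median log2 ratio was 0.31 and that of all measured genes -0.06. The classes were alike in the median, 0.29 for long intergenic members (18 higher, 10 lower) and 0.32 for antisense members (22 higher, 5 lower).

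**Figure D1:**
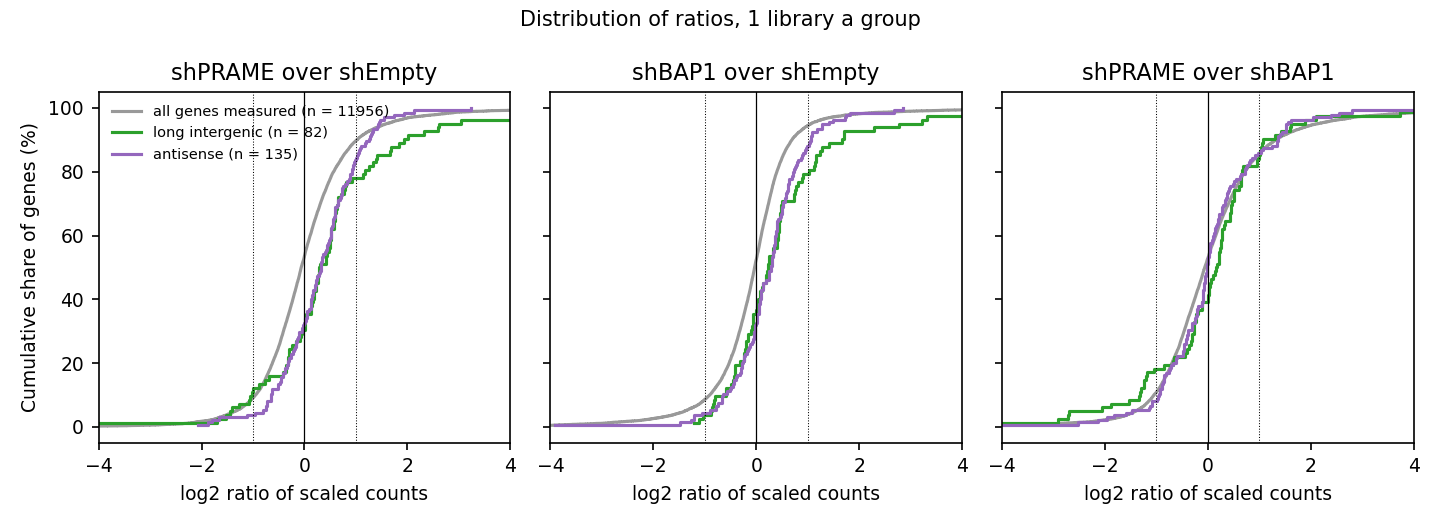
Cumulative share of genes (y axis, %) by log2 ratio of scaled counts (x axis, shown from -4 to 4) for all 11956 measured genes, 82 long intergenic and 135 antisense members, in each of the 3 comparisons of single libraries; dotted lines mark 2-fold. At the median both member curves lie to the right of the curve of all genes against shEmpty. In shPRAME against shEmpty, however, 12.2% of long intergenic members were called lower, beside 9.08% of all genes. In shPRAME against shBAP1 the medians were 0.17 for long intergenic members, -0.02 for antisense members and -0.06 for all genes. There 18.3% of long intergenic members and 8.15% of antisense members were called lower, beside 10.9% of all genes.

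Abundance moved with this shift. Over all measured genes with a mean count from 50 to under 200, 22.0% were called higher and 10.6% lower in shPRAME, with a median log2 ratio of 0.24. The 145 members in that range had 32 called higher (22.1%) and 9 lower (6.21%), with a median of 0.45. Of the 72 members with a mean of 200 or more, 8 (11.1%) were called higher and 6 (8.33%) lower, beside 7.31% and 8.71% of all genes in that range. Their median log2 ratio was 0.11, and that of all genes there -0.10. The share of scarce members called higher in shPRAME was thus near that of all scarce genes, and the part of abundance in the members' median was not tested.

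**Figure D2:**
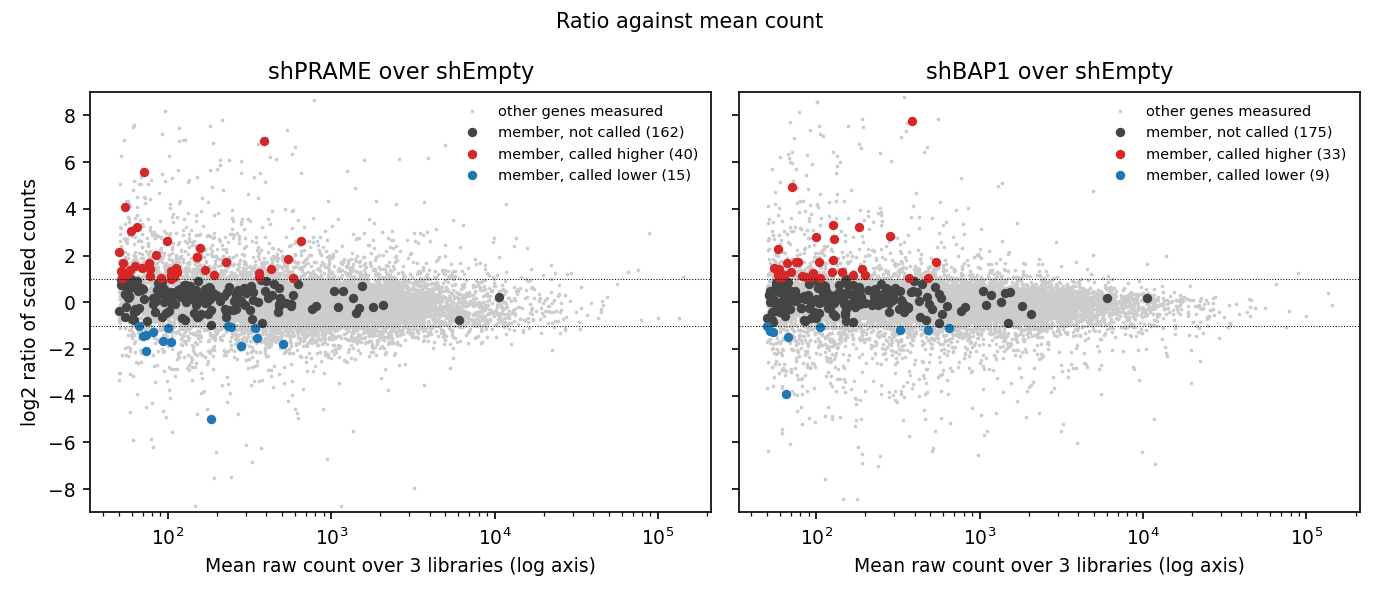
The log2 ratio of scaled counts (y axis) against the mean raw count over the 3 libraries (x axis, log scale) for members (large points, coloured by call) and the other measured genes (small points), with 2-fold marked by dotted lines; a few other genes lie beyond the axis. Most called members have a mean count under 200, where 32 of the 40 members called higher in shPRAME and 28 of the 33 called higher in shBAP1 lie.

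The members ranked highest in shPRAME against shEmpty include several that were almost silent in the control. LINC01287 had 4, 687 and 469 counts, or 0.213, 46.3 and 25.7 CPM, in shEmpty, shBAP1 and shPRAME. It was 120.2-fold higher in shPRAME than in shEmpty (interval 46.6 to 443), and the control stood below both hairpin libraries. LINC00648 had no count in shEmpty, 73 in shBAP1 and 141 in shPRAME, at least 48.2-fold higher in shPRAME against a floor of 3 counts for the empty library. LINC01234 had 24, 131 and 142 counts and was 6.06-fold higher (3.92 to 9.78). LINC01004 was at 12.2, 40.1 and 43.9 CPM and 3.59-fold higher (3.10 to 4.18). All 4 were low in the control and closer to each other in the hairpin libraries.

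The RefSeq promoters of LINC01287 and LINC01234, 250 bases before to 50 after the start in assembly GRCh38.p14, are shown because these RNAs were low in the same library. They lie at chr7:153412185-153412484 and chr12:113773634-113773933, both on the minus strand. Capitals mark matches on either strand to CATGTG (the E-box type bound by MITF) or to AGGTCA (the half-site of nuclear receptors), of which the first holds 1 and 2 and the second 2 and 0.
LINC01287: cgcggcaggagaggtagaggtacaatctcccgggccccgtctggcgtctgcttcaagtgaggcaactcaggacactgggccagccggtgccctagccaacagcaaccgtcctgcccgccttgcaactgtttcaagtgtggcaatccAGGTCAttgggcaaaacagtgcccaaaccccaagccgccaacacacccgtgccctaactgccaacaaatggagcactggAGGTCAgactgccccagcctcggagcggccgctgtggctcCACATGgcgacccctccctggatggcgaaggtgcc
LINC01234: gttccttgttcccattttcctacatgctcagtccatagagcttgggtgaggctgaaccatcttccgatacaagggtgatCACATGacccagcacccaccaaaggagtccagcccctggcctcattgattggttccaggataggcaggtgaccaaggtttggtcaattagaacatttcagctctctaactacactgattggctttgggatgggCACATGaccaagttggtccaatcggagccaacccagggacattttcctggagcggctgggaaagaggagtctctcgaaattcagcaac

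Other members were highest in shPRAME. LINC00324, beside the gene of the telomere protein CTC1, had 9, 4 and 150 counts (0.480, 0.269 and 8.20 CPM) and was 17.1-fold higher in shPRAME than in shEmpty (8.76 to 38.1). FUT8-AS1 had 19, 1 and 175 counts and was 9.44-fold higher (5.87 to 16.1). Both were near the floor in shBAP1 and scarce in the control. LINC01518 was at 0.854, 2.29 and 7.0 CPM and was 8.20-fold higher (4.86 to 14.8). It was also called higher in shBAP1 than in shEmpty. LINC00174 was at 3.47, 5.79 and 17.4 CPM and 5.01-fold higher (3.83 to 6.65). PSMG3-AS1, overlapping the gene of a proteasome assembly chaperone, was at 4.54, 3.30 and 17.3 CPM and 3.81-fold higher (2.99 to 4.90). For these 3 the shPRAME library stood above both others.

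The most abundant of the group was LINC01314, which RefSeq now lists as the coding gene CTXND1 of the cortexin type. It had 268, 98 and 1594 counts, or 14.3, 6.60 and 87.2 CPM, and was 6.1-fold higher in shPRAME than in shEmpty (5.35 to 6.96).

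**Figure D3:**
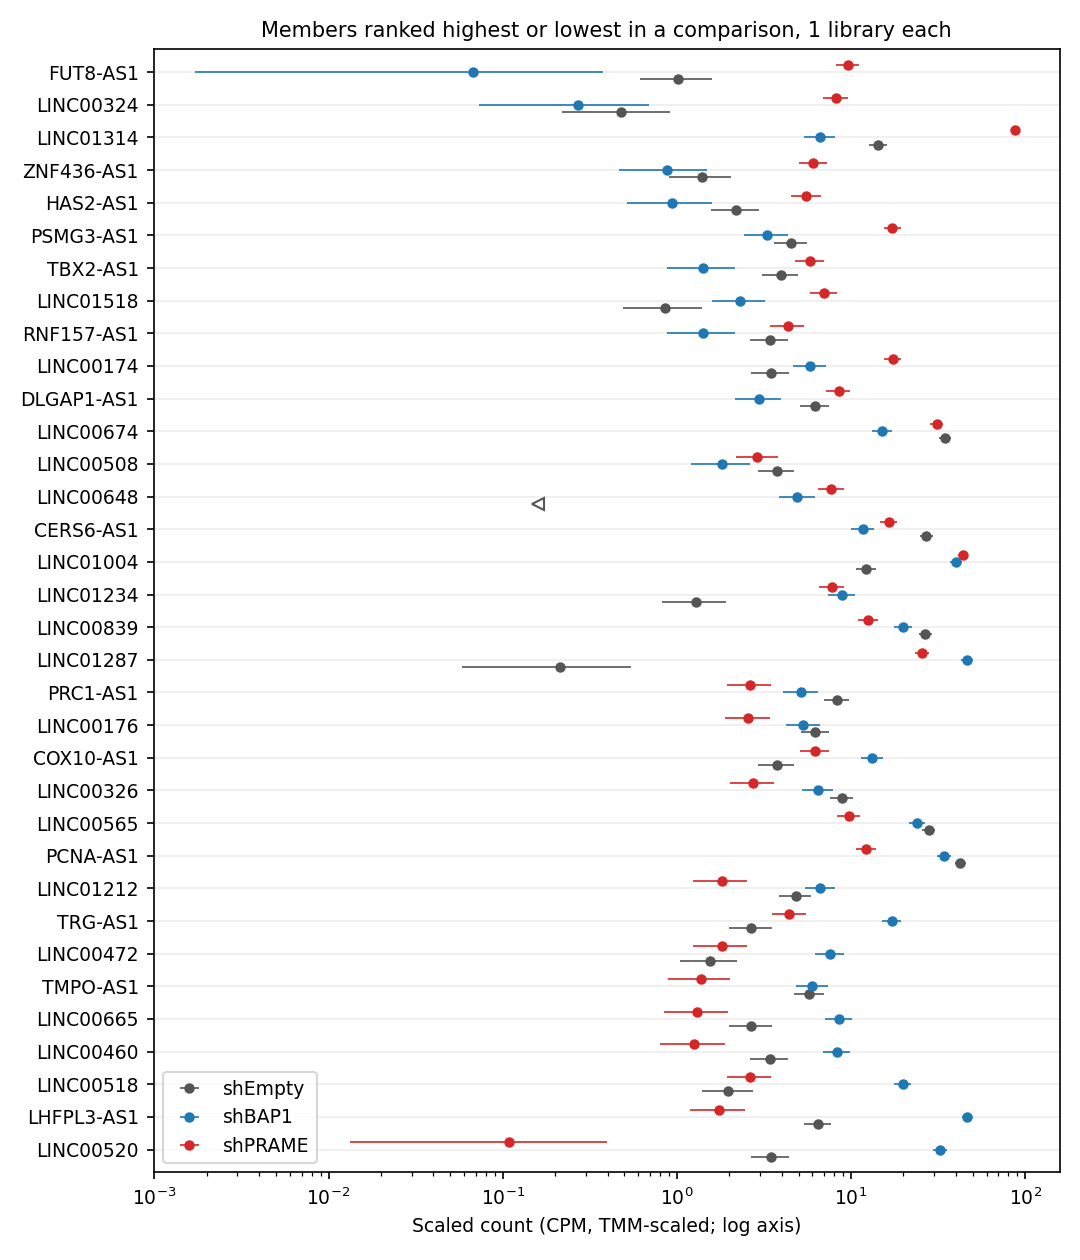
Scaled counts (x axis, CPM, log scale) of the members ranked highest or lowest in a comparison, with exact 95% counting intervals as bars, in shEmpty, shBAP1 and shPRAME (1 library each); members are ordered by the ratio of shPRAME to shBAP1, and the open triangle is LINC00648 in shEmpty, drawn at the floor of 0.160 CPM because it had no count. FUT8-AS1 and LINC00324 head the list with shPRAME highest, and LHFPL3-AS1 and LINC00520 close it with shBAP1 highest.

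Among the 15 members lower in shPRAME, LINC00520 stood apart. It had 65, 482 and 2 counts (3.47, 32.5 and 0.109 CPM) and was 31.7-fold lower in shPRAME than in shEmpty, with a wide interval of 8.43 to 267 from its 2 counts. LHFPL3-AS1 was at 6.46, 46.5 and 1.75 CPM and 3.69-fold lower (2.48 to 5.63). Both were highest in shBAP1 and lowest in shPRAME.

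Of the other antisense members called lower, 3 carry the names of PCNA, TMPO and PRC1. PCNA-AS1, antisense to the sliding clamp of DNA replication, was at 42.4, 34.2 and 12.3 CPM and 3.46-fold lower in shPRAME (2.98 to 4.03). TMPO-AS1, overlapping the gene of a nuclear lamina protein, was at 5.76, 6.0 and 1.37 CPM and 4.22-fold lower (2.71 to 6.80). PRC1-AS1, antisense to a protein of the spindle midzone, was at 8.27, 5.19 and 2.63 CPM and 3.15-fold lower (2.27 to 4.45). The first 2 lay within 1.5-fold of each other in shEmpty and shBAP1, and the coding partner of each of the 3 was also lower, as given below with the pairs.

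The promoter of PCNA-AS1 at chr20:5119336-5119635, plus strand, is shown because the RNA and PCNA had nearly the same ratio. The RNA had 794, 508 and 224 counts and PCNA 3901, 2600 and 1127. The layout of this pair was not placed, and whether the genes share reads was not tested. Capitals mark its 4 matches on either strand to TTTNNCGC (the E2F type of cell-cycle promoters), 3 of which overlap in 1 run. This motif was found in 5.03% of the 159 members with a promoter in the table, in 11% of other measured genes and in 6.90% of all 27305 promoters there.
PCNA-AS1: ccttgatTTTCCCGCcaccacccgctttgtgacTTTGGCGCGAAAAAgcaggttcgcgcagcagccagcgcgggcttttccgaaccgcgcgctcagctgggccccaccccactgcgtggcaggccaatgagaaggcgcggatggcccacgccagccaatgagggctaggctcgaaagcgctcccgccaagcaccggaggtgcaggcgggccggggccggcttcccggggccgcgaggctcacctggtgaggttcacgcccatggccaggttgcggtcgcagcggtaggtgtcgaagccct

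LINC01212 is SAMMSON, an RNA of melanoma that is transcribed next to MITF and needed for mitochondrial function. It was at 4.80, 6.67 and 1.80 CPM and 2.66-fold lower in shPRAME than in shEmpty (1.77 to 4.10). LINC00565 was at 27.9, 24.0 and 9.74 CPM and 2.87-fold lower (2.41 to 3.42). LINC00326 was at 8.86, 6.47 and 2.73 CPM and 3.24-fold lower (2.35 to 4.54). In these 3 the shPRAME library was the lowest and the others lay within 1.5-fold of each other. LINC00176, which RefSeq lists as the coding gene C20orf204, was at 6.24, 5.32 and 2.57 CPM and 2.43-fold lower (1.72 to 3.48). LINC00839 was at 26.7, 19.9 and 12.6 CPM and 2.12-fold lower (1.81 to 2.49). Its call, and those of LINC00152 and LINC00665, ended under at least 1 other scaling of the libraries.

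In shBAP1 against shEmpty, the comparison for the BAP1 messenger, 33 members (15.2%) were called higher and 9 (4.15%) lower, against 5.53% higher and 8.56% lower of all measured genes. Their median log2 ratio was 0.26, that of all measured genes -0.03. Of long intergenic members 17 were higher and 3 lower, and of antisense members 16 and 6. Scarce genes differ here from those of the first comparison, since among all genes with a mean count from 50 to under 200 14.3% were higher and 14.1% lower, while of the 145 members in that range 28 (19.3%) were higher and 6 (4.14%) lower. Scaling by total counts moved the median of all genes by 0.12 log2 in this comparison. It raised the share of calls over all genes that were higher from 39.2% to 49.8%, with 40 members higher and 6 lower.

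LINC01287 led this comparison too and was 217-fold higher in shBAP1 than in shEmpty (84.3 to 798), from the counts given above. LINC00648 was at least 30.7-fold higher against the floor. The comparisons share the control library, so a low level there enters both. LINC01234 was 6.89-fold (4.43 to 11.1) and LINC01004 3.28-fold higher (2.81 to 3.84).

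The other leading members were highest in shBAP1. LINC00520 was 9.36-fold higher in shBAP1 than in shEmpty (7.21 to 12.3), and LHFPL3-AS1 7.2-fold (5.93 to 8.81). LINC00518, one of the RNAs read together with PRAME in adhesive-patch tests of pigmented lesions, had 37, 294 and 48 counts, or 1.97, 19.8 and 2.63 CPM. It was 10.0-fold higher in shBAP1 (7.11 to 14.5), and its levels in the other libraries were not separated by counting error. TRG-AS1, from the T cell receptor gamma locus, was at 2.67, 17.2 and 4.43 CPM and 6.44-fold higher (4.74 to 8.90). LINC00472 was at 1.55, 7.54 and 1.80 CPM and 4.87-fold higher (3.22 to 7.61). COX10-AS1, beside the gene of an enzyme of heme A synthesis, was at 3.74, 13.2 and 6.18 CPM and 3.53-fold higher (2.68 to 4.71). Pigment genes were high in the same library, and their part in these values was not tested.

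The promoter of LHFPL3-AS1 at chr7:104804043-104804342, minus strand, is shown because its levels spread widely, with shBAP1 above shEmpty above shPRAME. Capitals mark its 3 matches on either strand to CATGTG, 2 of which overlap. The motif was found in 10.7% of member promoters, 6.49% of those of other measured genes and 11.2% of all promoters in the table.
LHFPL3-AS1: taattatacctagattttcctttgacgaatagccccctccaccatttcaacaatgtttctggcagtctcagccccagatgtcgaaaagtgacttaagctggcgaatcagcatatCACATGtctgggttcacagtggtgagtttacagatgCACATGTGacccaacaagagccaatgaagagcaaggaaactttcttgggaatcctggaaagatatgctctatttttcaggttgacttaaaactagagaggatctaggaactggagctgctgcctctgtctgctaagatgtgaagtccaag

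All 9 members called lower in shBAP1 can be named. FUT8-AS1, with its 1 count there, was 15.1-fold lower than in shEmpty, with an interval of 2.39 to 625. TBX2-AS1, antisense to a T-box repressor, was at 3.95, 1.41 and 5.80 CPM and 2.79-fold lower (1.70 to 4.77). RNF157-AS1 was at 3.42, 1.41 and 4.32 CPM and 2.41-fold lower (1.46 to 4.16). HAS2-AS1, antisense to a hyaluronan synthase, was at 2.19, 0.943 and 5.52 CPM and 2.32-fold lower (1.24 to 4.61). In these 4 shBAP1 was the lowest library.

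CERS6-AS1, antisense to a ceramide synthase, was at 27.1, 11.7 and 16.5 CPM and 2.31-fold lower in shBAP1 (1.94 to 2.76). LINC00674 was at 34.7, 15.1 and 31.1 CPM and 2.30-fold lower (1.98 to 2.69). LINC01314 was 2.17-fold lower (1.71 to 2.76). DLGAP1-AS1, antisense to a scaffold of synapses, was at 6.19, 2.96 and 8.48 CPM and 2.09-fold lower (1.46 to 3.03). LINC00508, with 70, 27 and 53 counts, was 2.05-fold lower (1.30 to 3.33). The calls of LINC01314, DLGAP1-AS1 and LINC00508 ended with total-count scaling.

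The hairpin libraries were also compared with each other, which leaves the control out. In shPRAME against shBAP1 31 members (14.3%) were called higher and 26 (12.0%) lower, close to the 14.2% and 10.9% of all measured genes. Their median log2 ratio was 0.02. FUT8-AS1 was 142-fold higher in shPRAME than in shBAP1 (25.2 to 5644.1) and LINC00324 30.4-fold (11.6 to 113). LINC01314 was 13.2-fold higher (10.8 to 16.4). ZNF436-AS1, at 1.39, 0.876 and 6.07 CPM, was 6.93-fold higher (3.89 to 13.4), and PSMG3-AS1 5.24-fold (3.87 to 7.23). The first 2 rest on 1 and 4 counts in shBAP1, which the intervals show.

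Lower in shPRAME than in shBAP1 were LINC00520, 297-fold (81.7 to 2457.9), and LHFPL3-AS1, 26.6-fold (18.6 to 39.1). LINC00518 was 7.54-fold lower (5.54 to 10.5). LINC00460 was at 3.42, 8.29 and 1.26 CPM and 6.59-fold lower (4.20 to 10.8). LINC00665 was at 2.67, 8.49 and 1.31 CPM and 6.47-fold lower (4.15 to 10.5). In all 5 shBAP1 was the highest library.

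Read as an order over the 3 libraries, no member was highest in shEmpty against both others (1.56% of all measured genes were), and 10 were lowest there (4.61%, beside 2.34%). The 10 were LINC01287, LINC00648, LINC01234, LINC01004, LINC01518, LINC00346, LINC00491, FBXL19-AS1, GDNF-AS1 and KMT2E-AS1. In shBAP1 15 members were highest (6.91%, beside 2.63%) and 7 lowest (3.23%, beside 6.02%). In shPRAME 22 were highest (10.1%, beside 6.81%) and 12 lowest (5.53%, beside 5.15%). LINC00520, LHFPL3-AS1, LINC00460 and LINC00665 were both highest in shBAP1 and lowest in shPRAME. FUT8-AS1, HAS2-AS1 and LINC01314 had the reverse order. The 0 members highest in shEmpty became 3 with a fold limit of 1.5.

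The antisense members were then set beside their sense genes. Of the 135, 133 had the gene named before -AS in the table, and for 112 it was measured. By GENCODE release 29, 103 antisense members overlap the gene on the opposite strand and 24 start head to head within 1 kb of it, while the rest have another layout or were not placed. The kit was directional but the strand setting of the counting is not given, so reads of an overlapping pair cannot be told apart. For 29 antisense members the counts were above those of the sense gene in every library. FGD5-AS1, for example, had 2123, 1499 and 1804 counts and FGD5, a gene of endothelial cells, 1, 4 and 5. LHFPL3 had 9, 7 and 0 counts while LHFPL3-AS1 had 121, 690 and 32.

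In shPRAME against shEmpty 82 of the 112 pairs had neither gene called. In 17 only the antisense member was called (16 higher, 1 lower), in 7 only the sense gene (3 higher, 4 lower), in 5 both the same way and in 1 both in opposite ways. The antisense members had a median log2 ratio of 0.33 and their sense genes of -0.14. Of all measured genes 10.2% were called higher and 9.08% lower. Within pairs the antisense ratio was above the sense ratio in 78 of 112, with a median difference of 0.40 log2. All measured genes with a mean count from 50 to under 200 had a median log2 ratio of 0.24, and those with 200 or more -0.10. The part of abundance in the difference within pairs was not tested. Across the 112 pairs, which share libraries and in part sequence, the Pearson correlation of the log2 ratios was 0.495.

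**Figure D4:**
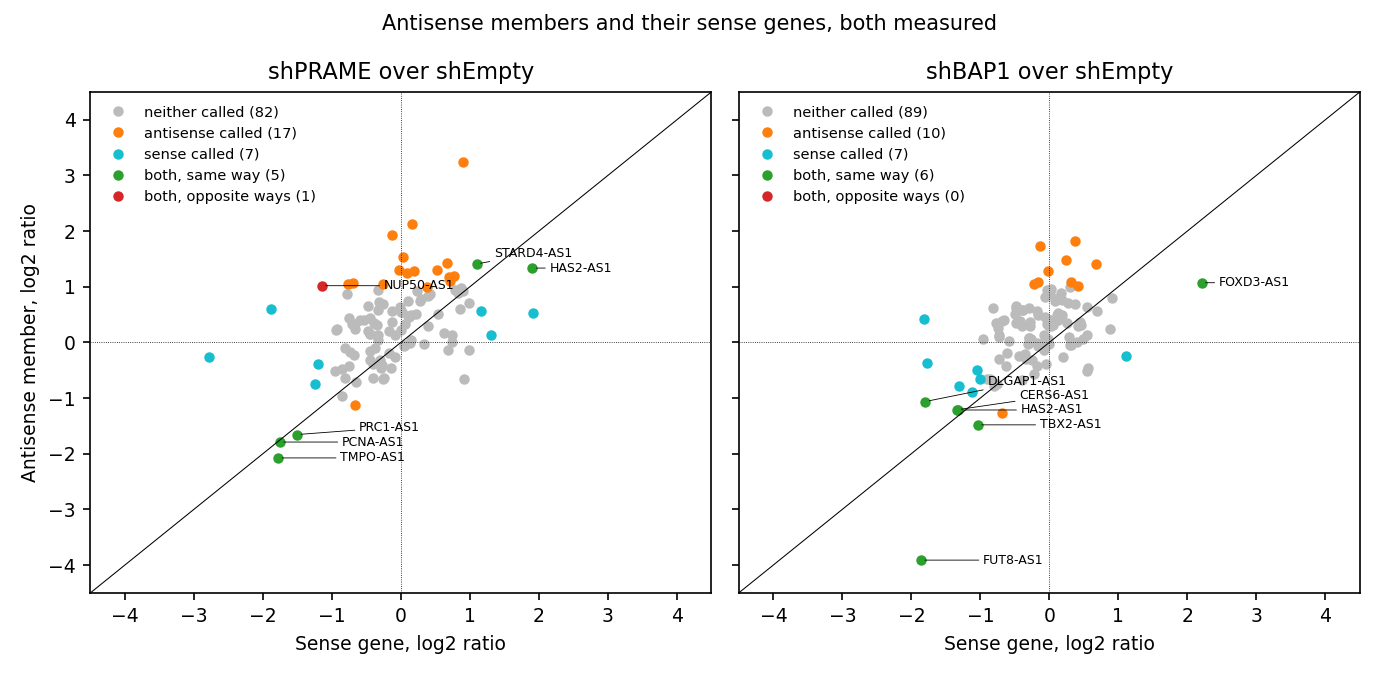
The log2 ratio of each antisense member (y axis) against that of its sense gene (x axis) for 112 pairs, in shPRAME over shEmpty and in shBAP1 over shEmpty; colours give which gene of a pair was called, the diagonal marks equal ratios, and pairs with both called are named by the antisense member. Most points lie above the diagonal (78 and 85 of 112), and NUP50-AS1 is the single pair called in opposite ways.

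The 3 pairs lower together in shPRAME were those of PCNA-AS1, TMPO-AS1 and PRC1-AS1. PCNA was at 208, 175 and 61.6 CPM in shEmpty, shBAP1 and shPRAME and 3.38-fold lower in shPRAME (3.16 to 3.61), next to 3.46-fold for PCNA-AS1. TMPO was at 463, 237 and 135 CPM and 3.43-fold lower (3.28 to 3.59). PRC1 was at 256, 194 and 90.2 CPM and 2.84-fold lower (2.68 to 3.0). Each gene and its antisense RNA were lowest in shPRAME.

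Higher together in shPRAME were the pairs of HAS2-AS1 and STARD4-AS1. HAS2, which makes hyaluronan, was at 15.1, 6.06 and 56.5 CPM and 3.74-fold higher in shPRAME (3.28 to 4.28), and HAS2-AS1 was 2.52-fold higher (1.74 to 3.72). STARD4-AS1, overlapping the gene of a sterol carrier, was at 15.5, 16.2 and 41.1 CPM and 2.66-fold higher (2.32 to 3.05).

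NUP50-AS1 differed from its neighbour. It had 496, 279 and 981 counts, or 26.5, 18.8 and 53.7 CPM, and was 2.03-fold higher in shPRAME than in shEmpty (1.82 to 2.26). NUP50, a nuclear pore protein, had 14586, 5614 and 6413 counts, or 778, 378 and 351 CPM, and was 2.22-fold lower (2.15 to 2.29). The RNA was highest in shPRAME, where NUP50 was lowest. In shBAP1, however, NUP50 was nearly as low, 2.06-fold lower than in shEmpty, and there the RNA was at its lowest. With a pseudocount of 1 CPM the ratio of the RNA in shPRAME against shEmpty was 1.99 and no longer called. RefSeq now names it NUP50-DT, and its promoter at chr22:45163732-45164031, minus strand, shares 243 bases with that of NUP50. It is shown for this shared stretch, with its match to CACGTG (an E-box) in capitals. That motif was in 6.92% of member promoters, 10.4% of those of other measured genes and 7.43% of all promoters in the table.
NUP50-AS1: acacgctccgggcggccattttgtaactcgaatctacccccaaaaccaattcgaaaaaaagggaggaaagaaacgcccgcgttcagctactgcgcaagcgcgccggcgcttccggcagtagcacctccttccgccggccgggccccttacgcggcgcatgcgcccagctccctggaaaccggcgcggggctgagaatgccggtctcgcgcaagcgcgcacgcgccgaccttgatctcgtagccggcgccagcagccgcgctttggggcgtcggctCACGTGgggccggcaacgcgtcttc

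The pairs with the widest gap in shPRAME were led by OIP5-AS1 (cyrano), an RNA that triggers decay of miR-7. It was at 50.9, 39.0 and 42.2 CPM and was not called, while OIP5, of the centromere, was at 12.4, 12.0 and 1.80 CPM and 6.86-fold lower (4.75 to 10.2). FUT8, the core fucosyltransferase, was 1.86-fold higher (1.75 to 1.98) where FUT8-AS1 was 9.44-fold higher.

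In shBAP1 against shEmpty 89 pairs had neither gene called. In 10 only the antisense member was called (9 higher, 1 lower), in 7 only the sense gene (1 higher, 6 lower), in 6 both the same way and in 0 both in opposite ways. Of all measured genes 5.53% were called higher and 8.56% lower. The antisense ratio was above the sense ratio in 85 of 112 pairs, with a median difference of 0.37 log2, and the correlation across pairs was 0.556. All measured genes with a mean count from 50 to under 200 had a median of 0.07, and those with 200 or more -0.04. The part of abundance was not tested here either.

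FOXD3-AS1 and FOXD3 were the pair higher together in shBAP1. FOXD3, a transcription factor of the neural crest, was at 7.15, 33.0 and 3.01 CPM and 4.62-fold higher (3.81 to 5.63). FOXD3-AS1 was at 3.04, 6.40 and 1.80 CPM and 2.10-fold higher (1.5 to 2.97). Their promoter windows share 208 bases, and both genes had the same order of libraries.

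Lower together in shBAP1 were the pairs of FUT8-AS1, CERS6-AS1, HAS2-AS1, TBX2-AS1 and DLGAP1-AS1. FUT8 was at 80.8, 22.2 and 150.4 CPM and 3.63-fold lower (3.22 to 4.11). CERS6 was 2.52-fold lower (2.24 to 2.85), HAS2 2.49-fold (1.96 to 3.19), TBX2 2.05-fold (1.94 to 2.18) and DLGAP1 3.48-fold (2.71 to 4.51). FUT8-AS1 and HAS2-AS1 followed their sense genes in both directions, lower in shBAP1 and higher in shPRAME, though FUT8 itself missed the 2-fold limit in shPRAME.

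In other pairs the antisense member and its sense gene had widely different ratios in shBAP1 against shEmpty. ZEB1-AS1, antisense to the gene of an epithelial-mesenchymal regulator, was at 2.35, 1.82 and 5.36 CPM and was not called. ZEB1 was at 145, 42.2 and 248 CPM and 3.43-fold lower (3.14 to 3.75), although the promoter windows share 220 bases. TTC28-AS1 was at 2.67, 3.57 and 4.05 CPM and not called, and TTC28 at 49.5, 14.0 and 89.3 CPM and 3.53-fold lower (3.03 to 4.12). GDNF-AS1 was at 1.97, 6.60 and 5.31 CPM and 3.34-fold higher in shBAP1 (2.27 to 5.02), while GDNF, a neurotrophic factor, was at 111, 101 and 176 CPM. COX10 was at 23.7, 30.8 and 19 CPM and not called where COX10-AS1 was 3.53-fold higher, with 145 bases shared between their windows.

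In shPRAME against shBAP1 12 pairs were called the same way (9 higher, 3 lower), in 13 only the antisense member was called, in 14 only the sense gene, and in 0 both in opposite ways. Of all measured genes 14.2% were called higher and 10.9% lower. The median difference within pairs was 0.07 log2, with the antisense ratio above the sense ratio in 61 of 112.

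The nearest coding gene in the table was sought for the 29 named long intergenic members, and for 22 of them it was measured. Most of the 29 were named because they were called, and a neighbour may lie over 100 kb away. In shPRAME against shEmpty 13 of these members were called, and for 4 the neighbour was called the same way, where 10.2% of all measured genes were called higher and 9.08% lower. MITF, the master regulator of melanocytes and neighbour of SAMMSON, was at 309.9, 239 and 114 CPM and 2.71-fold lower in shPRAME (2.58 to 2.85), next to 2.66-fold for SAMMSON itself. EFNB2, an ephrin ligand and the nearest gene to LINC00460 at over 100 kb, was at 16.0, 26.5 and 3.77 CPM and 4.23-fold lower (3.24 to 5.58), where LINC00460 was 2.72-fold lower (1.66 to 4.58). EYA4, also over 100 kb from LINC00326, was 2.76-fold lower (2.42 to 3.14). TPST1, a tyrosine sulfotransferase beside LINC00174, was at 17.8, 22.4 and 50.2 CPM and 2.82-fold higher (2.49 to 3.21). In 9 of the 13 the neighbour was not called the same way.

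In shBAP1 against shEmpty 11 were called and 2 neighbours went the same way. Of all measured genes 5.53% were called higher and 8.56% lower. TFAP2A, a transcription factor of neural crest and melanocytes beside LINC00518, was at 24.0, 74.9 and 7.11 CPM and 3.13-fold higher in shBAP1 (2.80 to 3.5). OGFRL1, beside LINC00472, was at 3.36, 11.6 and 2.73 CPM and 3.45-fold higher (2.57 to 4.68). KTN1, beside LINC00520, was at 355, 252 and 333 CPM and not called in any comparison. DPP6, over 100 kb from LINC01287, had 2, 1 and 4 counts, near the floor in every library, and could not be compared with it. In shPRAME against shBAP1 14 members were called, with 7 neighbours called the same way and 1 the opposite way. There 14.2% of all measured genes were called higher and 10.9% lower.

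A list of 46 long intergenic and antisense RNAs well known from other studies had 21 members. In shPRAME against shEmpty 4 of them were higher and 3 lower, in shBAP1 against shEmpty 8 higher and 0 lower, and in shPRAME against shBAP1 2 higher and 6 lower. The shares over all measured genes were 10.2% and 9.08%, 5.53% and 8.56%, and 14.2% and 10.9%. The list was written with earlier results of these data known, and it names LINC01287, LINC00520 and LINC00518, so its counts support nothing about well-known RNAs. Among those not yet described, LINC00346 was at 2.78, 9.03 and 7.0 CPM and 2.52-fold higher in shPRAME (1.81 to 3.55) and 3.25-fold in shBAP1 (2.34 to 4.57). LINC00662 was at 3.58, 7.75 and 3.39 CPM and 2.17-fold higher in shBAP1 (1.59 to 2.97). LINC00152 (CYTOR, an RNA linked to the cytoskeleton) was at 15.4, 18.2 and 7.66 CPM and 2.01-fold lower in shPRAME (1.63 to 2.47). ZEB1-AS1 was 2.28-fold higher in shPRAME (1.58 to 3.34).

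Among the other well-known members, some of them abundant, the following 6 differed less than 2-fold in every comparison. NORAD (LINC00657) was at 558, 635 and 655 CPM, 1.17-fold higher in shPRAME than in shEmpty (1.14 to 1.20). Its ratio of shPRAME to shBAP1 was 1.03, and 0.976 with total-count scaling. FGD5-AS1 was at 113, 101 and 98.7 CPM and HIF1A-AS2 at 68.3, 62.0 and 60.0 CPM. LINC00673, known in melanoma as SLNCR, was at 105, 57.2 and 89.2 CPM and 1.83-fold lower in shBAP1 (1.69 to 1.99), short of the limit. LINC00473, a target of cAMP signalling, was at 15.2, 14.1 and 12.1 CPM, and LINC01116 at 9.29, 12.4 and 10.2 CPM. None of these 6 was called in any comparison.

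LINC00511 was at 4.80, 2.76 and 6.84 CPM and was called only in shPRAME against shBAP1, 2.48-fold higher (1.73 to 3.61). SBF2-AS1 was at 10.7, 8.89 and 6.84 CPM, MAPKAPK5-AS1 at 8.75, 11 and 10.9 CPM, and LINC00467 at 8.27, 5.52 and 8.37 CPM, none of them called.

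For comparison 32 other long noncoding RNAs, which carry names of other kinds, were measured. In shPRAME against shEmpty 9 were higher and 4 lower with a median log2 ratio of -0.11, and in shBAP1 against shEmpty 5 and 3 with a median of 0.21. These are 28.1% and 12.5% beside 10.2% and 9.08% of all measured genes, and 15.6% and 9.38% beside 5.53% and 8.56%. This list too was written with earlier results of these data known, so its shares support nothing about other long noncoding RNAs. NEAT1, the scaffold of paraspeckles, was at 2190.8, 3773.5 and 5417.7 CPM and 2.47-fold higher in shPRAME (2.44 to 2.50). MIR100HG, the host of miR-100, was at 73.1, 22.7 and 337 CPM, 4.61-fold higher in shPRAME (4.35 to 4.89) and 3.22-fold lower in shBAP1 (2.85 to 3.64). H19, an imprinted RNA, had 121, 11 and 96 counts and was 8.72-fold lower in shBAP1 (4.70 to 17.9). MIR100HG had the same order of libraries as FUT8-AS1, HAS2-AS1 and LINC01314. Of the snoRNA hosts named SNHG, SNHG1 and SNHG3 were 2.04-fold and 2.11-fold lower in shPRAME, and SNHG5 2.43-fold higher in shBAP1. SNHG6, SNHG7, SNHG8, SNHG12, SNHG15 and SNHG16 were not called against shEmpty. The other genes of this list called lower in shPRAME than in shEmpty were DANCR (2.75-fold) and THRIL (3.17-fold).

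The promoters of members are known for 159. Their median GC content was 63.7%, beside 65.3% for other measured genes and 58.3% for all promoters in the table. A CpG ratio (observed over expected) above 0.6 was found in 66.0% of them, in 84.8% of other measured genes and in 48.9% of all. Names of the same pattern that stayed below the mean count had a median GC content of 52.7%, and 34% of them had such a CpG ratio. Members thus lay between the scarce RNAs of their own naming and other measured genes. TGANTCA (the AP-1 type) was in 7.55% of member promoters, 4.32% of those of other measured genes and 7.76% of all. AGGTCA was in 13.2%, 9.21% and 13.9%, in the same order. In 31 of the 90 pairs with both promoters the windows of the antisense member and its sense gene overlap.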

How the data were processed

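RNA of 3 A375SM populations was sequenced, 1 library each. Per the labels' protocols, RNA was extracted with TRIzol, messenger RNA was purified, and libraries from a directional NEBNext Ultra II kit were read in pairs on a NovaSeq instrument. The authors deposited 1 table of whole-number counts per gene and library. FastQC, TopHat, Cufflinks, edgeR and hg19 (GRCh37) are named in the submitters' processing notes without their roles. How reads were counted, with which strand setting and annotation, is not given in the sources used here. No other per-sample column was present and no library was left out.

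Counts were scaled with TMM factors over the 3 libraries (edgeR 4.0.16, R 4.3.3; factors 0.964 for shEmpty, 1.047 for shBAP1 and 0.991 for shPRAME). Ratios took no pseudocount, and their 95% intervals came from the exact conditional binomial distribution (Python 3.11.15, scipy 1.17.1). These intervals cover counting error only. A count of 0 was set to 3 counts, or 0.160 (shEmpty), 0.202 (shBAP1) and 0.164 (shPRAME) CPM. The procedure was tested on simulated data with counting error alone, which cannot show the spread between populations.

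Members were grouped by symbol. Exon lengths and pair layouts came from GENCODE release 29, and promoters, types and neighbours from RefSeq (GRCh38.p14), all matched by symbol. Both are newer than the assembly of the counts. Motifs were searched on both strands, and a promoter window spans 300 bases. Tables of member names were joined with pandas 2.3.3 and drawn with matplotlib 3.10.9.

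Named members are the 10 highest and 10 lowest called against shEmpty for each hairpin and 5 each in shPRAME against shBAP1, in order of the interval end closest to a ratio of 1. Added were the well-known members, up to 4 pairs per kind and comparison, pairs called in opposite ways, neighbours of named long intergenic members, and the names next to the count minimum. Of the pairs this rule names, 1 is not reported here. Members described with high CPM per kb and the promoters shown were chosen after their values were seen. The members and all lists were chosen with earlier results of these data known. Alternatives were 3 other scalings (total count, upper quartile, DESeq2 1.42.0 size factors), fold limits of 1.5 and 3, intervals required to lie wholly beyond 2-fold, minimum mean counts of 10 and 200 or no minimum, a pseudocount of 1 CPM and a shorter promoter window. Leaving out the members RefSeq lists as coding was added after the data were seen.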

Additional observations from a re-analysis of the deposited data

How the results depend on the processing

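No paired analysis was possible because each group has 1 library. None of the alternatives run reversed a direction that had been called. DESeq2 size factors and leaving out the members RefSeq lists as coding (an alternative chosen after seeing the data) kept every count of members within 1.5 times and every median within its spread. Among single-gene ratios under the 4 alternatives of scaling and pseudocount, 610 kept their side of the limit, 30 lost a call, 1 gained one (PRC1-AS1 in shPRAME against shBAP1, 0.479 with total counts) and 7 ratios without a call moved beyond their counting interval.

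Counts of members higher and lower are given for shPRAME against shEmpty, shBAP1 against shEmpty and shPRAME against shBAP1 in turn. Shares over all genes at these settings are not set beside them, so they show only how many members pass each rule. A fold limit of 1.5 gave 75 and 29, 62 and 20, 50 and 47. A limit of 3 gave 16 and 6, 14 and 1, 12 and 12. A whole interval beyond 2-fold gave 20 and 7, 15 and 1, 17 and 16. A mean count of at least 10 gave 122 and 30, 94 and 37, 100 and 75, a mean of at least 200 gave 8 and 6, 5 and 3, 7 and 7, and no minimum gave 170 and 38, 135 and 40, 136 and 103. A pseudocount of 1 CPM left 4 members lower in shBAP1 against shEmpty.

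Members highest and lowest in shEmpty, shBAP1 and shPRAME in turn were 3 and 32, 26 and 14, 37 and 23 with a limit of 1.5. Here too no share over all genes is set beside the counts. With a limit of 3, 4 were lowest in shEmpty, 7 highest and 1 lowest in shBAP1, and 9 highest and 3 lowest in shPRAME, and with the whole interval beyond 2-fold these counts were 4, 7, 1, 12 and 5. A mean count of at least 10 gave 3 and 33, 48 and 24, 69 and 23, no minimum gave 5 and 40, 72 and 25, 94 and 23, and a mean of at least 200 gave 2 lowest in shEmpty, 1 and 2 in shBAP1, 6 and 5 in shPRAME. A pseudocount of 1 CPM left 2 lowest in shBAP1 and 6 lowest in shPRAME, and total-count scaling left 4 lowest in shBAP1.

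The members' median log2 ratio in shPRAME against shEmpty was 0.45 with a mean count of at least 10, 0.11 with 200 and 0.20 without a minimum. In shBAP1 against shEmpty it was 0.38 with total counts, and in shPRAME against shBAP1 -0.15 without a minimum. The median of long intergenic minus that of antisense members, -0.03, -0.06 and 0.18 in the 3 comparisons, was 0.16 and 0.14 against shEmpty with a minimum of 10, and 0.18, 0.10 and 0.032 with a minimum of 200. Without a minimum it was -0.24 in shPRAME against shEmpty and -0.20 in shPRAME against shBAP1, so the sign of this class difference depends on the minimum. In the 100 bases before the start, 3.77% of member promoters held TGANTCA, 2.52% CACGTG, 3.77% CATGTG, 0.629% TTTNNCGC and 6.92% AGGTCA.

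A minimum or limit changes how many genes are counted, and the cause of the other changes was not tested. A pseudocount of 1 CPM ended calls of scarce members, among them FUT8-AS1 (0.530), HAS2-AS1 (0.609), RNF157-AS1 (0.547), FOXD3-AS1 (1.83), LINC00662 (1.91) and LINC01518 (1.77) in shBAP1 against shEmpty, and LINC00460 (0.511) and ZEB1-AS1 (1.90) in shPRAME against shEmpty. The 145 members under a mean count of 200 have the widest counting intervals, and the spread between populations was not measured.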
